A study of Mus musculus with 2 samples.

Results

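Hexim1, Ell2, Cdk9, Ccnt1, Ccnt2, Larp7 and Brd2 act at the control of transcription elongation, and their transcripts are described here in single cells of a mouse melanoma model with and without combined inhibition of MEK and RAF. The 7 genes were chosen by name, with their treated and untreated values in these libraries already known, from the 15121 genes of the deposited table, and all 7 are in it. Their difference between the libraries is therefore given as a description. The treated library came from the syngeneic NILER model under trametinib, an inhibitor of the kinase MEK, together with BGB-283, a RAF inhibitor. The untreated library came from the same model without drug. The model descends from the mouse melanoma line NIL, which carries mutant Nras and was exposed to ultraviolet light, so both libraries share these. Both were taken on day 5, labelled as T cells and made with a droplet kit that reads the 3' end of polyA RNA. The labels do not state how many mice gave each library or how cells were sorted.

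RNA polymerase II often pauses soon after it starts a gene. P-TEFb, the kinase CDK9 bound to cyclin T1 or T2, phosphorylates the paused polymerase and its pausing factors and so allows elongation. Much of P-TEFb is held inactive on the 7SK small nuclear ribonucleoprotein, where LARP7 binds the 7SK RNA and HEXIM1 inhibits the kinase. BRD2 belongs to the BET family, which reads acetylated histones, and ELL2 is an elongation factor of the super elongation complex. HEXIM1 was first described as a protein induced by hexamethylene bisacetamide, and ELL2 is known for its part in immunoglobulin secretion by plasma cells.

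The promoters of 3 members are shown because Hexim1 and Ell2 had the largest ratios between the libraries, while Larp7 is the partner of Hexim1 in the 7SK particle and shared a motif with Ell2. Each runs 5′ to 3′ on the strand of the gene, from 250 bases before to 50 bases after the RefSeq start site, in the build GRCm38.p6. Promoters were matched by symbol for 7 of 7 members, since the deposited table holds no coordinates. Hexim1 lies at chr11:103116075-103116374 on the + strand, Ell2 at chr13:75707234-75707533 on the + strand and Larp7 at chr3:127553300-127553599 on the - strand. Capitals mark the full cyclic AMP response element TGACGTCA and the TATA repeat TATATA, each searched on both strands.
Hexim1: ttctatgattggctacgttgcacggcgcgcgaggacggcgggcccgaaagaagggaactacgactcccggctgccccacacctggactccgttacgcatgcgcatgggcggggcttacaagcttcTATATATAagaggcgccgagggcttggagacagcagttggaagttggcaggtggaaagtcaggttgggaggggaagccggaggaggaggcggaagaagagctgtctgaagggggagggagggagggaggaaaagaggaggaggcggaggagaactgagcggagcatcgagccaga
Ell2: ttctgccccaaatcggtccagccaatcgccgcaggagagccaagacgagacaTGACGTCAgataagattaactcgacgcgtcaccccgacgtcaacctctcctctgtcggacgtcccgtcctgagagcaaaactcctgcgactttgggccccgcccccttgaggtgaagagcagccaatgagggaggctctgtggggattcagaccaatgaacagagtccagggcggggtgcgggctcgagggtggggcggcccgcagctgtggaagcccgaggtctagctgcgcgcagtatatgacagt
Larp7: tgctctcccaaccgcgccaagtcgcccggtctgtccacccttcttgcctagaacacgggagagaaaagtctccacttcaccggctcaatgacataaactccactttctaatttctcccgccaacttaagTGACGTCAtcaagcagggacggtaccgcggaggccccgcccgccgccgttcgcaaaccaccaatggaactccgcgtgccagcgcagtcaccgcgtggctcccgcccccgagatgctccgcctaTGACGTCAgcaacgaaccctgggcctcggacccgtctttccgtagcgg
The Hexim1 window held 2 overlapping matches to TATATA, with first bases at positions -125 and -123 from the start site, and no match to TGACGTCA. A match to TATATA is found in 5.67% of 32851 RefSeq promoters of this length. The Ell2 window held 1 match to TGACGTCA, at position -198, and the Larp7 window held 2, at -121 and at 2. Of all promoters 1.79% held at least 1 match and 0.0396% held 2 or more. The windows of Cdk9, Ccnt1, Ccnt2 and Brd2 held neither motif. The matches describe letters in these windows, and no binding was measured.

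In the annotation GENCODE M21, Hexim1 is a gene of 1 exon on chromosome 11 with no overlapping gene, and the Ell2 transcripts on chromosome 13 have 4 to 12 exons. Brd2, on chromosome 17, overlaps H2-DMa on the opposite strand, Ccnt1 overlaps 9330020H09Rik and Ell2 overlaps 1700037F03Rik. These partners of Ccnt1 and Ell2 also lie on the opposite strand. Whether reads were counted by strand is not given in the sources used here, and whether reads of such pairs were kept apart was not tested. H2-DMa, a gene of antigen presentation, was lower where Brd2 was higher, at 9.98 CPM in treated CD8 cells and 35.9 CPM in untreated CD8 cells. It was far higher in myeloid gates, at 495.3 CPM in treated and 717.3 CPM in untreated dendritic cells. In macrophages it had 249.6 CPM treated and 331.6 CPM untreated. Brd2 itself had 189.7 CPM in untreated dendritic cells and 133.3 CPM in untreated macrophages. The part of H2-DMa reads in those Brd2 values was not tested. In treated CD8 cells 9330020H09Rik had 7.18 CPM, against 4.39 CPM in untreated CD8 cells. Levels are counts of unique molecular identifiers (UMIs) summed over the cells of a gate and scaled to a gate total of 1000000 UMIs (CPM). Each group is 1 library, so no test was made and no spread between mice can be given. Ratios are treated over untreated, their 95% intervals cover counting error only, and treatment cannot be told apart from mouse, batch or library.

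The treated library held 8078 cells with a median of 5987.5 UMIs, and the untreated library 9312 cells with a median of 6155 UMIs. They shared 35 cell barcodes. After filtering, cells were gated by their own UMIs, with none of the 7 genes used. The CD8 gate held 4671 treated and 4079 untreated cells, the CD4 gate 481 treated and 891 untreated cells, and the Foxp3-positive gate, which marks regulatory T cells, 500 treated and 622 untreated cells. The label names only T cells, yet the dendritic gate held 90 treated and 327 untreated cells and the macrophage gate 125 treated and 157 untreated cells. Most markers outside the gating rule were highest in their own gate, but several were also found in others. Lyz2, a lysozyme gene, was at 7995 CPM in treated and 5776 CPM in untreated macrophages, against 7.68 CPM in treated and 13.7 CPM in untreated CD8 cells. Cd74 was at 15160 CPM in treated and 18450 CPM in untreated dendritic cells. Il2ra was at 573.5 CPM in treated and 174.1 CPM in untreated Foxp3-positive cells. Nkg7 was at 2163 CPM in treated and 1442 CPM in untreated CD8 cells, against 148.8 CPM in treated and 112.6 CPM in untreated CD4 cells. Nkg7 also had 299.2 CPM in treated and 668.1 CPM in untreated Foxp3-positive cells. Cd74 also had 6435 CPM in treated and 6024 CPM in untreated macrophages. Ikzf2 had 1498 CPM in treated and 993.5 CPM in untreated Foxp3-positive cells. It also had 354.5 CPM in treated and 240.6 CPM in untreated CD8 cells. The chemokine gene Ccl5 did not follow the CD8 gate, with 3252 CPM in treated and 1719 CPM in untreated CD8 cells but 1266 CPM in treated and 1905 CPM in untreated Foxp3-positive cells. The collagen gene Col3a1 reached 1151 CPM in treated and 133.3 CPM in untreated macrophages, and the haemoglobin gene Hbb-bs 4.91 CPM in treated and 2819 CPM in untreated macrophages. Such RNA was not limited to macrophages. Col3a1 had 713.1 CPM in treated and 13.9 CPM in untreated dendritic cells, and 169.2 CPM in treated and 30.5 CPM in untreated CD4 cells. Hbb-bs had 0.417 CPM in treated and 973.3 CPM in untreated CD4 cells. The part of such other RNA in the values of any gate was not tested.

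Hexim1 was higher in the treated library in all 5 gates. In CD8 cells it had 192.8 CPM (6474 UMIs) treated and 26.6 CPM (910 UMIs) untreated, a ratio of 7.24 (6.75 to 7.77). By this ratio Hexim1, which was chosen on these values, ranked 12 from the highest among 5151 genes with a mean of at least 20 CPM. In CD4 cells it had 238.8 CPM treated and 36.9 CPM untreated, a ratio of 6.47 (5.403 to 7.798). The CD8 interval overlapped that of CD4 cells and lay above those of the other 3 gates. In Foxp3-positive cells it had 128.1 CPM treated and 24.9 CPM untreated, a ratio of 5.15 (4.27 to 6.24). In dendritic cells the values were 94.98 CPM treated and 20.4 CPM untreated, a ratio of 4.65 (3.55 to 6.11), and in macrophages 150.7 CPM treated and 31.2 CPM untreated, a ratio of 4.83 (3.63 to 6.52).

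All 5 treated Hexim1 levels lay above all 5 untreated levels. Among treated gates CD4 cells were highest, followed by CD8 cells, then by macrophages and Foxp3-positive cells, whose intervals overlapped, and then by dendritic cells. Among untreated gates the order ran from CD4 cells through macrophages, CD8 and Foxp3-positive cells to dendritic cells, and the intervals of each neighbouring pair overlapped, although the CD4 interval (31.2 to 43.2) lay above those of CD8, Foxp3-positive and dendritic cells. The untreated levels of Hexim1 thus spanned 20.4 to 36.9 CPM over 5 kinds of cell, and the treated levels 94.98 to 238.8 CPM.

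The difference was spread over many cells. At least 1 Hexim1 UMI was found in 68.3% of treated and 18.9% of untreated CD8 cells, and at least 2 UMIs in 37.0% of treated and 2.94% of untreated cells. The most in any CD8 cell was 23 UMIs treated and 4 UMIs untreated. After each cell was thinned to 2000 UMIs, which left out 83 treated and 65 untreated CD8 cells, Hexim1 was found in 31.6% of treated cells (30.2 to 32.9) and 6.20% of untreated cells (5.48 to 6.99). Thinned shares were 34.1% treated and 7.04% untreated in CD4 cells, and 21.4% treated and 5.76% untreated in Foxp3-positive cells. They were 24.7% treated and 4.62% untreated in dendritic cells, and 33.1% treated and 9.38% untreated in macrophages. A share of treated cells above that of untreated cells was thus seen in each gate at equal depth. No gate should lack these genes, so Lyz2, a macrophage marker, was read as a sign of free RNA. It was found unthinned in 4.45% of treated and 9.51% of untreated CD8 cells at median depths of 6410 and 6400 UMIs. Untreated macrophages held 5776 CPM of Lyz2 and 31.2 CPM of Hexim1, so the Lyz2 share does not give the part of free RNA in Hexim1.

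Ell2 was also higher in the treated library in all 5 gates, with ratios that differed more between gates. In CD8 cells it had 83.6 CPM (2808 UMIs) treated and 8.81 CPM (301 UMIs) untreated, a ratio of 9.49 (8.43 to 10.7). Ell2 ranked 7 among 5151 genes with a mean of at least 20 CPM. It passed that minimum only through the treated library and was chosen on these values, so nothing is read from the rank. In CD4 cells the values were 160.8 CPM treated and 32.2 CPM untreated, a ratio of 4.99 (4.08 to 6.13). In Foxp3-positive cells they were 132.9 CPM treated and 46.3 CPM untreated, a ratio of 2.87 (2.47 to 3.34). The intervals of these 3 T cell ratios did not overlap.

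In the myeloid gates the Ell2 ratios were smaller. Dendritic cells had 58.8 CPM (78 UMIs) treated and 34.1 CPM (167 UMIs) untreated, a ratio of 1.72 (1.30 to 2.27), and macrophages had 38.6 CPM (55 UMIs) treated and 20.6 CPM (41 UMIs) untreated, a ratio of 1.87 (1.23 to 2.87). After thinning to 2000 UMIs per cell the log2 ratio was 0.52 in dendritic cells, within its counting interval but under 1.5-fold, and 0.12 in macrophages.

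Untreated Ell2 levels ran from 8.81 CPM in CD8 cells to 46.3 CPM in Foxp3-positive cells, and the CD8 interval (7.84 to 9.86) lay below that of macrophages, the next gate (14.8 to 28.0). The treated order was CD4, Foxp3-positive, CD8, dendritic cells and macrophages, and the intervals of the first 4 gates were apart from each other. The treated dendritic interval (46.5 to 73.4) overlapped that of untreated Foxp3-positive cells (41.0 to 52.2), so treated and untreated levels of Ell2 were not separate across gates. Unthinned, Ell2 was found in 37.3% of treated and 5.59% of untreated CD8 cells. The untreated share was below that of Lyz2 in the same cells. Untreated macrophages, however, held 5776 CPM of Lyz2 and 20.6 CPM of Ell2. The Lyz2 share therefore does not give the part of free RNA in Ell2, which was not tested. Thinned, the Ell2 shares were 13.8% treated (12.8 to 14.9) and 1.42% untreated (1.08 to 1.84) in CD8 cells. They were 23.3% treated and 4.62% untreated in CD4 cells, and 24.1% treated (20.3 to 28.1) and 8.88% untreated (6.74 to 11.4) in Foxp3-positive cells. At equal depth the untreated share thus differed between CD8 and Foxp3-positive cells beyond counting error. In dendritic cells they were 12.4% treated and 8.31% untreated, and in macrophages 5.93% treated and 4.69% untreated, with overlapping intervals in both.

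**Figure D1:**
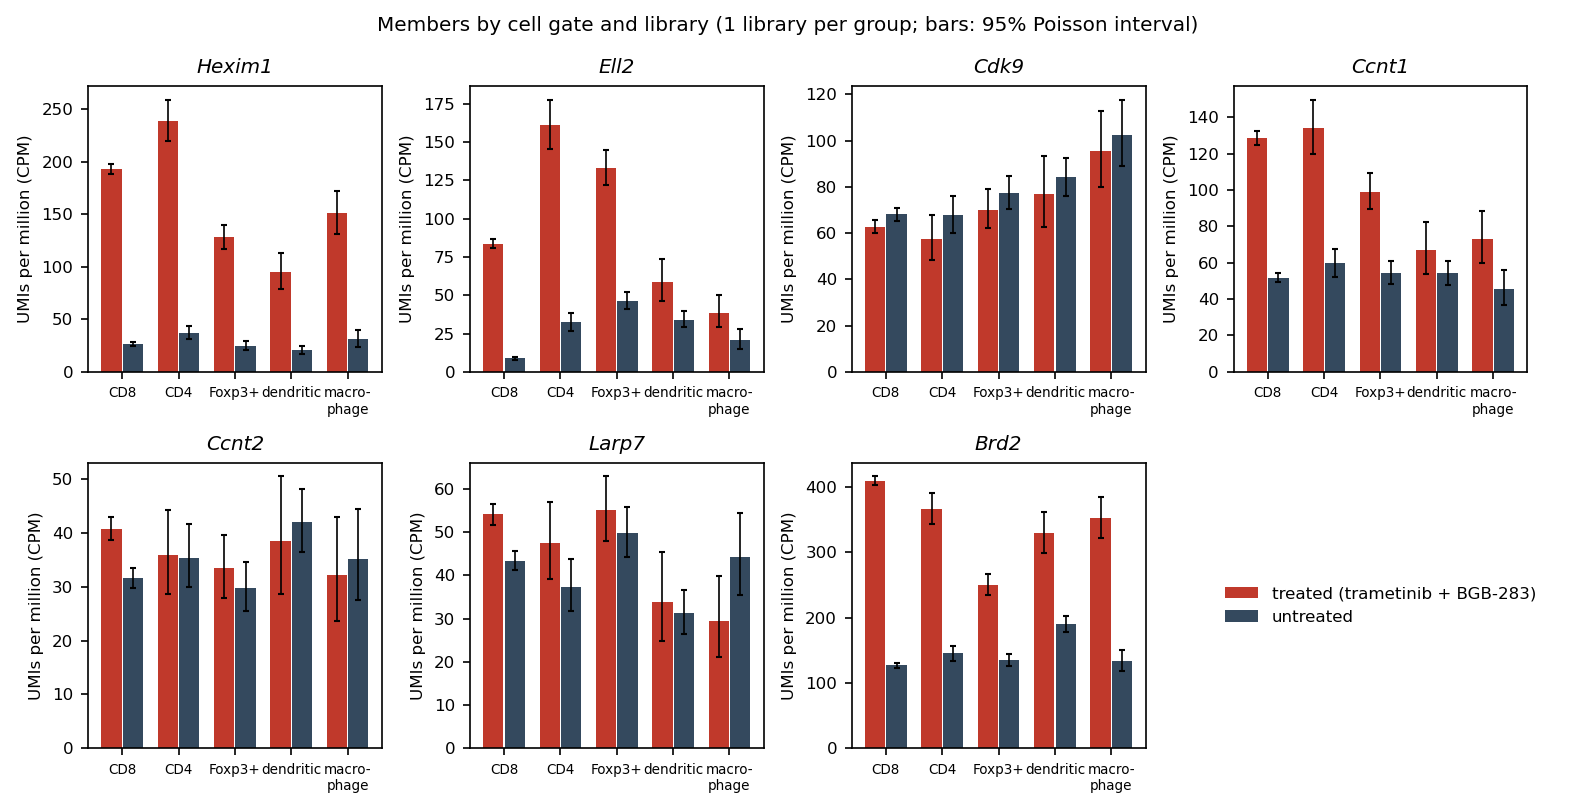
Level of each member in scaled UMIs (CPM) by cell gate, treated library left and untreated library right, with bars for the exact 95% Poisson interval of 1 library. Hexim1 stands at 94.98 to 238.8 CPM in treated and 20.4 to 36.9 CPM in untreated gates, while the Cdk9 bars of the libraries lie close together in each gate.

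The CD8 gates of the libraries held different mixtures of cells. Non-cycling cells with a UMI of Pdcd1, the gene of the receptor PD-1, made up 48.3% of treated and 11.01% of untreated CD8 cells. Non-cycling cells without one made up 30.7% of treated and 66.9% of untreated CD8 cells. Cycling cells, with a UMI of Mki67 or Top2a, made up 21.02% of treated and 22.11% of untreated CD8 cells. Levels were therefore also read within these 3 states, which together hold every cell of a T cell gate.

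Within each state of each T cell gate Hexim1 was higher in treated cells, by 4.15-fold or more. In Pdcd1-positive CD8 cells it had 201.9 CPM treated and 20.1 CPM untreated, a ratio of 10.1 (8.09 to 12.7). In Pdcd1-negative CD8 cells it had 210.6 CPM treated and 31.4 CPM untreated, a ratio of 6.70 (6.06 to 7.40). In cycling CD8 cells it had 163.1 CPM treated and 22.9 CPM untreated, a ratio of 7.13 (6.31 to 8.07). The difference in Hexim1 was thus seen within each state as well as over the mixture. In CD4 cells the ratio was 7.31 (4.38 to 12.9) in the Pdcd1-positive, 6.62 (5.35 to 8.24) in the Pdcd1-negative and 5.85 (3.63 to 9.83) in the cycling state. In Foxp3-positive cells it was 4.15 (2.88 to 6.09) in the Pdcd1-positive, 7.72 (5.14 to 12.02) in the Pdcd1-negative and 4.31 (3.297 to 5.681) in the cycling state.

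Ell2 was also higher in treated cells of each state, with ratios that differed between states. In Pdcd1-positive CD8 cells it had 105.8 CPM treated and 18.4 CPM untreated, a ratio of 5.75 (4.57 to 7.34). In Pdcd1-negative CD8 cells it had 39.99 CPM (327 UMIs) treated and 2.02 CPM (33 UMIs) untreated, a ratio of 19.8 (13.8 to 29.2). In cycling CD8 cells the values were 84.6 CPM treated and 14.0 CPM untreated, a ratio of 6.04 (5.16 to 7.11). In both libraries Ell2 was lowest in the Pdcd1-negative CD8 cells, which also had the largest ratio of the 3 states. Thinned to 2000 UMIs, an Ell2 UMI was found in 17.2% of treated (15.7 to 18.9) and 3.84% of untreated (2.25 to 6.07) Pdcd1-positive CD8 cells. In Pdcd1-negative CD8 cells the thinned shares were 6.45% treated (5.21 to 7.87) and 0.561% untreated (0.314 to 0.923). In CD4 cells the Ell2 ratio was 4.62 (3.08 to 7.10) in the Pdcd1-positive, 6.40 (4.803 to 8.63) in the Pdcd1-negative and 2.79 (1.85 to 4.26) in the cycling state. In Foxp3-positive cells it was 2.19 (1.66 to 2.90), 4.08 (3.02 to 5.58) and 2.39 (1.89 to 3.03) in the same order of states. Without cycling cells the log2 ratio of Ell2 in the CD8 gate was 3.96, beside 3.25 with them.

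**Figure D2:**
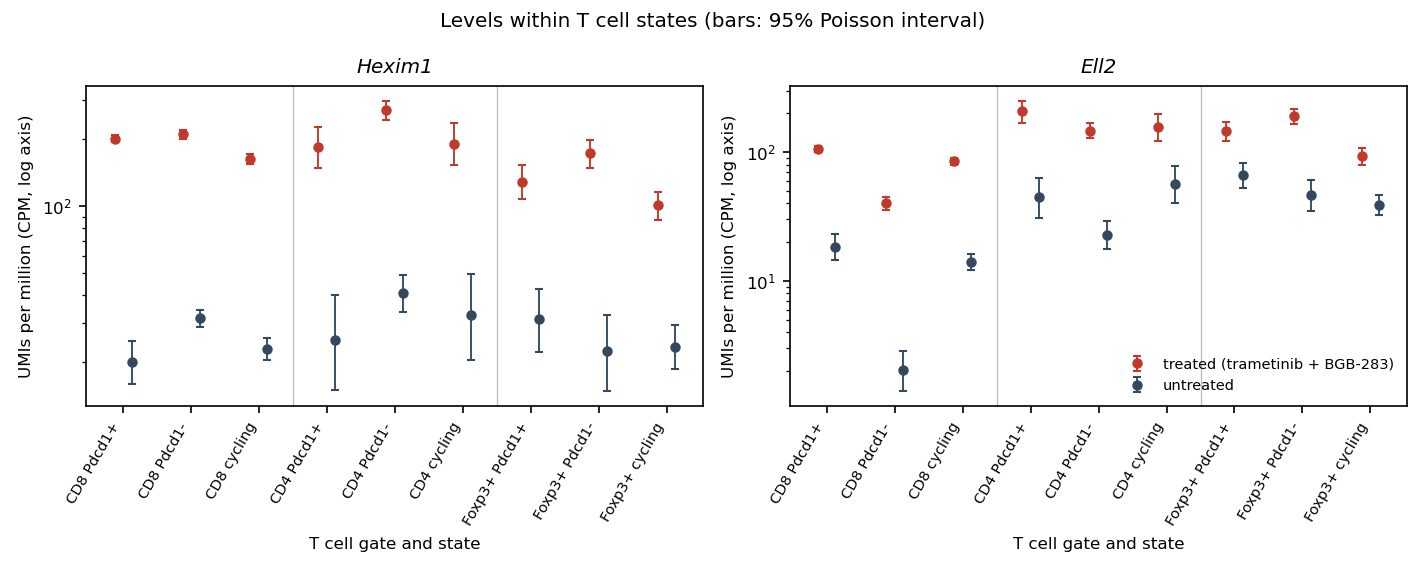
Levels of Hexim1 and Ell2 in scaled UMIs (CPM, log axis) in 3 states of each T cell gate, treated library left and untreated library right in each pair, with bars for the exact 95% Poisson interval. Treated points lie above untreated points in all 3 states of each gate, and Hexim1 in Pdcd1-positive CD8 cells stands at 201.9 CPM treated and 20.1 CPM untreated.

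The kinase and cyclins of P-TEFb did not move together. In CD8 cells Cdk9 had 62.8 CPM treated and 68.1 CPM untreated, a ratio of 0.921 (0.868 to 0.977). In CD4 cells it had 57.5 CPM treated and 67.7 CPM untreated, and in Foxp3-positive cells 70.1 CPM treated and 77.2 CPM untreated. In dendritic cells it had 76.9 CPM treated and 84.1 CPM untreated, and in macrophages 95.3 CPM treated and 102.6 CPM untreated. The ratios of those 4 gates lay between 0.850 and 0.929, and each interval included 1. After thinning, its log2 ratio was -0.88 in macrophages, and its direction turned to 0.14 in CD4 cells and 0.22 in dendritic cells (0.04 there with a stricter gate). Within the same states of the T cell gates the Cdk9 ratio lay between 0.732 and 1.37.

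Ccnt1, which encodes cyclin T1, was higher in treated cells of the T cell gates. In CD8 cells it had 128.4 CPM treated and 51.7 CPM untreated, a ratio of 2.49 (2.35 to 2.63). In CD4 cells it had 134.2 CPM treated and 59.6 CPM untreated, a ratio of 2.25 (1.90 to 2.67), and in Foxp3-positive cells 99.0 CPM treated and 54.4 CPM untreated, a ratio of 1.82 (1.57 to 2.12). In macrophages it had 72.9 CPM treated and 45.8 CPM untreated, a ratio of 1.59 (1.19 to 2.13), which fell just under 1.5-fold (log2 ratio 0.58) with ribosomal and mitochondrial genes left out of the total. The untreated levels of the 5 gates had overlapping neighbours from 45.8 to 59.6 CPM, while treated T cell gates stood apart from treated myeloid gates. In dendritic cells Ccnt1 had 67.1 CPM treated and 54.1 CPM untreated, with an interval that included 1 (0.964 to 1.58) and a direction that turned after thinning. Its ratio in CD8 cells was 2.42 (2.11 to 2.79) in the Pdcd1-positive, 2.66 (2.43 to 2.92) in the Pdcd1-negative and 2.27 (2.07 to 2.50) in the cycling state.

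Ccnt2, which encodes cyclin T2, had 40.8 CPM treated and 31.6 CPM untreated in CD8 cells, a ratio of 1.29 (1.19 to 1.40). In the other 4 gates its ratio lay between 0.914 and 1.12, and each interval included 1. In CD4 cells, at 35.8 CPM treated and 35.4 CPM untreated, the direction turned when the median of all genes was subtracted. After thinning, its log2 ratio was -0.80 in CD4 cells and -0.96 in macrophages, and its direction turned to 0.28 in dendritic cells. Without cycling cells it turned to -0.07 in Foxp3-positive cells. The cyclins of P-TEFb thus differed in size in CD8 cells, where the intervals of Ccnt1 and Ccnt2 did not overlap.

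Larp7, the 7SK binding partner of the complex, stayed within 1.5-fold of its untreated level over each whole T cell gate. It had 54.1 CPM treated and 43.4 CPM untreated in CD8 cells, a ratio of 1.25 (1.16 to 1.34). In CD4 cells it had 47.5 CPM treated and 37.4 CPM untreated, in Foxp3-positive cells 55.2 CPM treated and 49.7 CPM untreated, and in dendritic cells 33.9 CPM treated and 31.2 CPM untreated, each with an interval that included 1. In dendritic cells the direction turned when the median of all genes was subtracted, and after thinning the log2 ratio was -0.52 there and -0.21 in CD4 cells. Macrophages went the other way, with 29.4 CPM (42 UMIs) treated and 44.3 CPM (88 UMIs) untreated, a ratio of 0.665 (0.449 to 0.971), although after thinning the direction turned. It was under 1.5-fold with a stricter gate (log2 ratio -0.43) and without cycling cells (-0.29).

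Brd2, the BET protein, was higher in all 5 gates. In CD8 cells it had 409.6 CPM (13751 UMIs) treated and 127.3 CPM (4349 UMIs) untreated, a ratio of 3.22 (3.11 to 3.33). In CD4 cells it had 366.3 CPM treated and 145.1 CPM untreated, a ratio of 2.53 (2.27 to 2.81), and in Foxp3-positive cells 250.1 CPM treated and 135.2 CPM untreated, a ratio of 1.85 (1.68 to 2.03). In macrophages it had 351.9 CPM treated and 133.3 CPM untreated, a ratio of 2.64 (2.27 to 3.08). All treated levels of Brd2 lay above all untreated levels, and it was found in 56.6% of treated and 22.3% of untreated CD8 cells after thinning. Dendritic cells had 329.4 CPM treated and 189.7 CPM untreated, a ratio of 1.74 (1.55 to 1.95). There 1 treated cell held 76 of the 437 UMIs, and the log2 ratio was 0.80 with that cell and 0.67 without the top cell of each library. With a stricter dendritic gate it was 0.58, just under 1.5-fold. The Brd2 ratio in CD8 cells was 3.46 (3.150 to 3.801) in the Pdcd1-positive, 3.66 (3.47 to 3.87) in the Pdcd1-negative and 2.87 (2.71 to 3.03) in the cycling state.

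The members were set beside all genes with a mean of at least 20 CPM over the libraries in a gate, which all 7 passed in all 5 gates. In CD8 cells 4 of 7 members (Hexim1, Ell2, Ccnt1, Brd2) were at least 1.5-fold higher and 0 lower, where 31.6% of 5151 genes were higher and 12.3% lower. In CD4 cells 4 members were higher and 0 lower, where 25.7% of 5157 genes were higher and 11.9% lower. In Foxp3-positive cells 4 were higher and 0 lower, beside 17.6% higher and 9.21% lower of 5362 genes. The same 4 members passed the fold in each T cell gate. In dendritic cells 3 members (Hexim1, Ell2, Brd2) were higher and 0 lower, beside 23.8% higher and 9.74% lower of 5490 genes. In macrophages 4 were higher and 1, Larp7, lower, beside 22.3% higher and 14% lower of 5896 genes. Since the members were chosen on these values, nothing is read from the counts. The median log2 ratio of all genes was 0.19 in CD8, 0.11 in CD4 and 0.14 in dendritic cells. Relative to those medians 23.4% of genes were higher and 20.7% lower in CD8 cells, 21.7% and 16.4% in CD4 cells, and 17.9% and 14.0% in dendritic cells. The members past 1.5-fold stayed past it on that scale.

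Other elongation genes were read from a list of 45 genes that includes the members, of which 44 are in the table. In CD8 cells 33 passed the minimum of 20 CPM, with 19 at least 1.5-fold higher and 3 lower, and a median log2 ratio of 0.64 beside 0.19 for all genes. Relative to the median of all genes 14 were higher and 3 lower. Without the members 15 of 26 were higher and 3 lower, and relative to that median 10 were higher and 3 lower. With the members the counts were 15 higher and 1 lower of 32 in CD4 cells and 12 and 2 of 37 in Foxp3-positive cells. They were 12 and 0 of 32 in dendritic cells, and 12 and 3 of 34 in macrophages. Without the members they were 11 and 1 of 25 in CD4 and 8 and 2 of 30 in Foxp3-positive cells. They were then 9 and 0 of 25 in dendritic cells and 8 and 2 of 27 in macrophages. Of all genes 31.6% were higher in CD8, 25.7% in CD4, 17.6% in Foxp3-positive and 23.8% in dendritic cells, and 22.3% in macrophages. In the same order 12.3%, 11.9%, 9.21%, 9.74% and 14% were lower. In each gate the list median lay above that of all genes. It was 0.53 beside 0.11 in CD4 cells and 0.27 beside 0.003 in Foxp3-positive cells. In dendritic cells it was 0.42 beside 0.14, and in macrophages 0.35 beside 0.066. These medians include the members, which were chosen on these values. Without the members the list median was 0.64 in CD8, 0.51 in CD4, 0.26 in Foxp3-positive and 0.44 in dendritic cells, and 0.32 in macrophages.

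By role in CD8 cells, all 4 genes of the ELL and AFF complexes that passed the minimum were higher. Of these, Ell2 and Aff1 passed it only through the treated library, with 8.81 and 13.1 CPM untreated. Genes of these complexes under the minimum had ratios of 2.92 (Eaf1), 1.89 (Ice1), 1.71 (Ell), 1.19 (Mllt1), 0.950 (Eaf2) and 0.618 (Ice2). Nothing is therefore read from all 4 being higher. Of the 7SK particle Hexim1 and Mepce were higher, while Larp7 stayed within 1.5-fold. Both polymerase subunits on the list, Polr2a and Polr2b, were higher, and so were 3 of 5 genes of the PAF1 complex. Of DSIF and NELF, the factors that hold the paused polymerase, 1 of 4 was higher and 1 lower. Under the minimum, the NELF genes had ratios of 0.491 (Nelfcd) and 0.943 (Nelfa). Of the kinases of the polymerase tail and their partners 2 of 4 were higher (Cdk12, Cdk13) and 1 lower (Ccnh). Those under the minimum had ratios of 0.620 (Mnat1) and 0.944 (Cdk7). Over all genes 31.6% were higher and 12.3% lower in CD8 cells. Relative to the median of all genes Polr2a, Ctr9 of the PAF1 complex and Supt5, the higher gene of DSIF and NELF, were no longer past 1.5-fold. Cdk9 had the lowest ratio among the genes within 1.5-fold.

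After Ell2 and Hexim1 the highest ratios in CD8 cells were those of Aff1 and Mepce. Aff1, a scaffold of the super elongation complex that carries ELL2, had 75.5 CPM treated and 13.1 CPM untreated in CD8 cells, a ratio of 5.77 (5.22 to 6.40). Its ratio was 7.08 (5.64 to 8.96) in CD4 cells, 4.69 (3.93 to 5.63) in Foxp3-positive cells, 1.73 (1.38 to 2.16) in dendritic cells and 2.36 (1.59 to 3.54) in macrophages. Mepce, which caps the 7SK RNA that HEXIM1 binds, had 115.3 CPM treated and 29.4 CPM untreated in CD8 cells, a ratio of 3.92 (3.66 to 4.21). In CD8 cells Mepce transcripts were thus higher, while those of Larp7, whose protein joins the same particle, were near level. The particle itself was not measured. Over the 5 gates the Mepce ratio lay between 2.24 in dendritic cells and 4.68 in CD4 cells. Among list genes past the minimum of 20 CPM, Nelfe, a NELF subunit, had the lowest ratio in CD8 cells. It had 18.1 CPM treated and 34.6 CPM untreated (0.523, 0.474 to 0.578), so it passed only through the untreated library. Next was Ssrp1, a subunit of the histone chaperone FACT, at 84.0 CPM treated and 140.5 CPM untreated (0.598, 0.571 to 0.627). Ccnh, the cyclin of the CDK-activating kinase, followed at 27.2 CPM treated and 43.5 CPM untreated (0.625, 0.575 to 0.680). Under the minimum, Nelfcd was lower still, at a ratio of 0.491 (0.433 to 0.556).

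**Figure D3:**
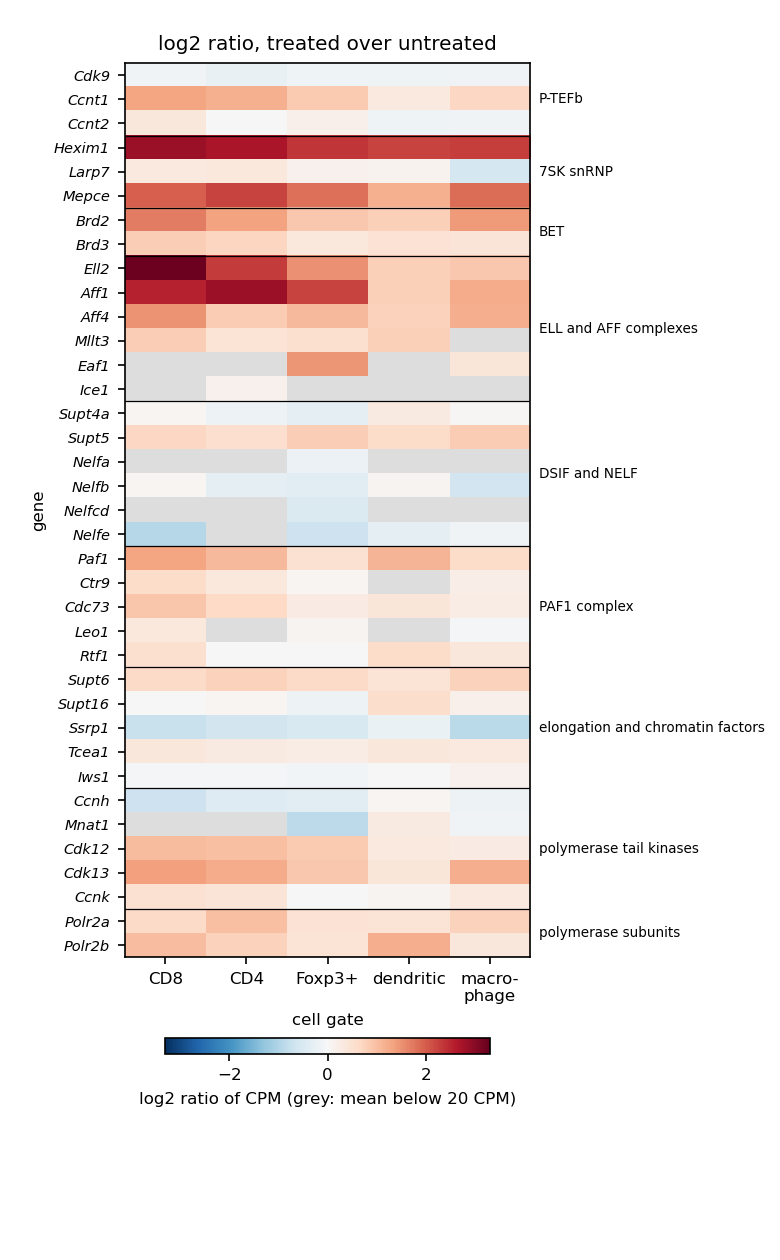
Log2 ratio of CPM, treated over untreated, for elongation genes reported here that passed a mean of 20 CPM in at least 1 gate, by role (grey cells are below the minimum in that gate). Hexim1, Mepce, Ell2 and Aff1 are dark red in the T cell gates, Cdk9 is near 0, and Nelfe and Ssrp1 are blue in CD8 cells.

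Cells with and without Ell2 held Hexim1 about equally often in the treated CD8 gate. After thinning, Hexim1 was found in 31.55% of 634 cells with an Ell2 UMI and in 31.56% of cells without. In untreated CD8 cells Hexim1 was found in 5.26% of 57 cells with an Ell2 UMI and in 6.22% of those without, and only 3 cells held both. Among treated Pdcd1-positive CD8 cells it was found in 31.8% of 384 cells with an Ell2 UMI and in 30.8% of those without. At 2000 UMIs per cell most transcripts are missed, and how weak a link could be detected was not tested.

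Across the 10 levels of 5 gates in 2 libraries, the genes closest to each pattern were ranked by Pearson's r of log2(CPM + 1) among 5509 genes. The points share libraries and depth, and r is given as a description. Closest to Hexim1 were Sirt1, a deacetylase (r = 0.989), Hnrnph1, a splicing regulator (0.986), Mat2a, which makes S-adenosylmethionine (0.982), Shoc2, a scaffold of RAS and RAF signalling (0.979), Amd1, an enzyme of polyamine synthesis (0.977), and Atxn2l (0.976). Sirt1 had 59.4 CPM treated and 12.9 CPM untreated in CD8 cells, and 47.0 CPM treated and 11.6 CPM untreated in macrophages. Closest to Ell2 were Rc3h2, which binds messenger RNA (0.941), Kdm6b, a histone demethylase (0.935), Golph3 (0.932), Mxd1, a partner of MAX (0.932), Parp4 (0.929) and Ppp6r3 (0.929). Kdm6b was highest in treated CD4 cells, as Ell2 was, at 678.8 CPM beside 157.0 CPM in untreated CD4 cells. No member stood among the closest genes of either, and r between Hexim1 and Ell2 was 0.755.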

How the data were processed

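The data are 1 treated and 1 untreated library of single-cell RNA. The submitters' processing notes name Cell Ranger and Seurat with no version, and GRCh38, a human build, while gene symbols are those of mouse. What the authors deposited is a table (15121 genes, 17390 cells) on a natural log scale, the log of 1 plus each cell's UMIs scaled to 10000. All 38204229 nonzero values gave whole UMIs within 0.01 after back-transformation, so UMIs were recovered and used. The library of a cell was read from its name suffix.

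Cells under 200 genes or over 10% mitochondrial UMIs were removed (358 treated, 216 untreated). The automatic Scrublet threshold marked 0 treated and 4 untreated cells and was taken as not working, so the highest 5% of doublet scores per library were removed (376 treated, 400 untreated). A T cell needed at least 1 UMI among Trac, Cd3d, Cd3e and Cd3g, and Cd8a or Cd8b1, Cd4 and Foxp3 set its gate. Macrophages and dendritic cells had none of these T cell genes and at least 2 of 8 or 9 marker genes. T cells with at least 2 markers of either kind (406 treated, 1124 untreated) were left out. The gates held 5867 treated and 6076 untreated cells. Cycling cells had a UMI of Mki67 or Top2a, and other cells were split by a UMI of Pdcd1. Some states and list genes are not reported here.

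UMIs were summed per gate and library. Exact Poisson (levels), conditional binomial (ratios) and Clopper-Pearson (shares) intervals are at the 95% level, and the calculation was tested on simulated data. Genes at 0 over a whole library (1123) were not tested. The members, gates and lists were chosen with earlier results of these data known. Named by rule were the 7 members, the 4 highest and 4 lowest list genes past the minimum in CD8 cells, and the 6 genes closest to Hexim1 and to Ell2. Markers, overlapping genes and genes given by role stand outside that rule. Promoters are from RefSeq and gene models from GENCODE M21. Software was scanpy 1.11.5, pandas 2.3.3, matplotlib 3.10.9, scipy 1.17.1 and numpy 2.4.6 under Python 3.11.15. Alternatives covered the cell filter, doublets, gate strictness, summary, total, scaling, cycling cells, depth, mixed droplets and the low-value minimum.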

Additional observations from a re-analysis of the deposited data

Results flagged for a closer look

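Larp7 was lower in treated macrophages and higher in treated CD8 cells, so its log2 ratio in macrophages minus that in CD8 cells was -0.91. The difference was not tested, since each gate held 1 library per group. The macrophage value rests on 42 treated and 88 untreated UMIs, and after thinning to 2000 UMIs per cell its log2 ratio was 0.38.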

How the results depend on the processing

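No paired analysis was possible because each group held 1 library and the labels give no replicate numbers. Hexim1 and Ell2 kept their direction in every gate under all 10 or 11 alternatives run. The log2 ratio of Hexim1 ranged from 2.63 to 2.89 in CD8, 2.56 to 2.73 in CD4, 2.00 to 2.50 in Foxp3-positive and 2.08 to 2.51 in dendritic cells, and 2.03 to 2.58 in macrophages. In the same order of gates, that of Ell2 ranged from 3.01 to 3.96, 2.08 to 2.56, 1.41 to 1.69, 0.52 to 1.07 and 0.12 to 1.00. Values outside the counting interval in CD8 cells were, for Ell2, 3.63 as a mean over cells, 3.05 less the median of all genes, 3.96 without cycling cells and 3.01 with cells holding myeloid markers kept. For Hexim1 they were 2.73 as a mean over cells, 2.69 without ribosomal and mitochondrial genes in the total, 2.66 less the median of all genes and 2.63 after thinning. With cells holding myeloid markers kept, Hexim1 was at 2.00 in Foxp3-positive cells. After thinning, Ell2 was at 0.12 and Larp7 at 0.38 in macrophages, where Larp7 had been at -0.59, and the cause was not tested. The 3 list genes lower in CD8 cells became 6 with no minimum beyond 10 UMIs, where more genes enter, and 1 as a mean over cells. Leaving out the cell with the most UMIs of a gene, and the Pdcd1-negative state, were added after seeing the data. The macrophage gate, at 125 treated and 157 untreated cells, limits what can be told of genes with few UMIs.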
